A study of Mus musculus with 12 samples.

Results

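The genes described here are 45 mouse genes of ribosome biogenesis, among them 3 subunits of RNA polymerase I. They were chosen by symbol, and each was found as 1 of the 23185 genes tested, through the gene identifier that names its row in the deposited table. Expression was measured on 12 whole-transcript arrays of CD4+ T cells from mouse spleen, with 3 arrays in each of 4 groups. The Cre- groups had the genotype Lck-Cre-;Ikzf+/+ and the Cre+ groups the genotype Lck-Cre+;Ikzf-/-, as the labels spell them. In the Cre+ mice the T lineage promoter of Lck drives the Cre recombinase, and the cells are labelled as lacking Ikaros, a zinc finger transcription factor of lymphocytes. Cells of each genotype were profiled at baseline, 0 hours, or after activation for 24 hours by antibodies against CD3, fixed to the plate, and CD28, in solution. CD3 is the signalling part of the T cell receptor, and CD28 gives the second, costimulatory signal. No group carried Cre with intact Ikaros, and none was cultured for 24 hours without the antibodies, so effects of Cre and of culture cannot be told apart from those of Ikaros loss and of activation. The sources used here give neither the age of the mice nor the exons deleted.

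Ribosomes are built in the nucleolus. RNA polymerase I transcribes the ribosomal DNA into a long precursor RNA, small nucleolar ribonucleoproteins (snoRNPs) modify it, and large assemblies of non-ribosomal factors fold and cut it while ribosomal proteins join. The precursor of the small subunit (40S) passes through the small subunit processome, and that of the large subunit (60S) through a separate series of particles that are remodelled by AAA ATPases and exported to the cytoplasm. Resting T cells hold few ribosomes and build many before they divide, and the transcription factor MYC is known as an activator of ribosome biogenesis genes in growing lymphocytes.

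All values are log2 expression as the authors deposited it. Differences are given on the log2 scale, where 1 is a 2-fold change, with the moderated standard error (SE) of a limma model fitted to all 12 arrays and all 23185 genes. A gene was called where its two-sided p, adjusted over all genes by the Benjamini-Hochberg method, was under 0.05. The labels do not say whether the replicates were separate mice, so the p-values measure the spread between these arrays, which may be technical. Levels are compared between arrays for 1 gene at a time and never between genes. Ikzf1, which encodes Ikaros, read 10.53 ± 0.01 (SD, n = 3) on the baseline arrays of Cre- and 10.36 ± 0.27 on those of Cre+ cells, and 10.11 ± 0.10 and 9.98 ± 0.13 after activation. Its single value can include undeleted exons, so it does not check the genotype labels.

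The arrays carried the markers of CD4 T cells, whose 9 measured genes, of 12 listed, had a mean between 9.79 and 10.4 on every array. These markers were also lower after activation, with 3 called lower in Cre- and 6 in Cre+ cells and medians of -0.44 and -0.50. Transcripts of B cells were also present at baseline, and the mean of 13 B cell markers lay between 7.69 and 8.05 on the 6 baseline arrays and between 4.64 and 6.17 on the activated ones. On activation 13 of these 13 markers fell in Cre- and 11 in Cre+ cells. Of 13 myeloid markers 11 fell in Cre- and 10 in Cre+ cells. Of 6 markers of natural killer cells 4 fell in Cre- cells, and 2 fell and 1 rose in Cre+ cells. These shifts accompany every activation difference below, and their part in it was not tested. In such bulk samples, fewer cells of a type and less RNA per cell cannot be told apart.

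Nearly the whole set was higher after activation. In Cre- cells 43 of the 45 genes rose, where 9.39% of all genes tested rose, and none fell, where 9.10% did. In Cre+ cells 44 rose, where 10.1% of all genes did, and none fell, where 10.6% did. The median log2 difference was 1.19 in Cre- cells, a 2.27-fold increase, and 1.28 in Cre+ cells, a 2.42-fold increase, against medians of 0.00 and -0.02 over all genes tested. The change was at least 2-fold for 32 genes in Cre- and 36 in Cre+ cells. The smallest difference in Cre- cells was that of Ddx10 (0.29) and the largest that of Mrto4 (1.88). All 45 genes read higher on every activated Cre- array than on any Cre- baseline array, where 17.7% of all genes did so. In Cre+ cells 44 did, where 17.3% of all genes did, and the exception was Ddx10. These comparisons rest on 3 arrays a group, and the 95% interval of a difference had a median half-width of 0.46 over the set.

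**Figure D1:**
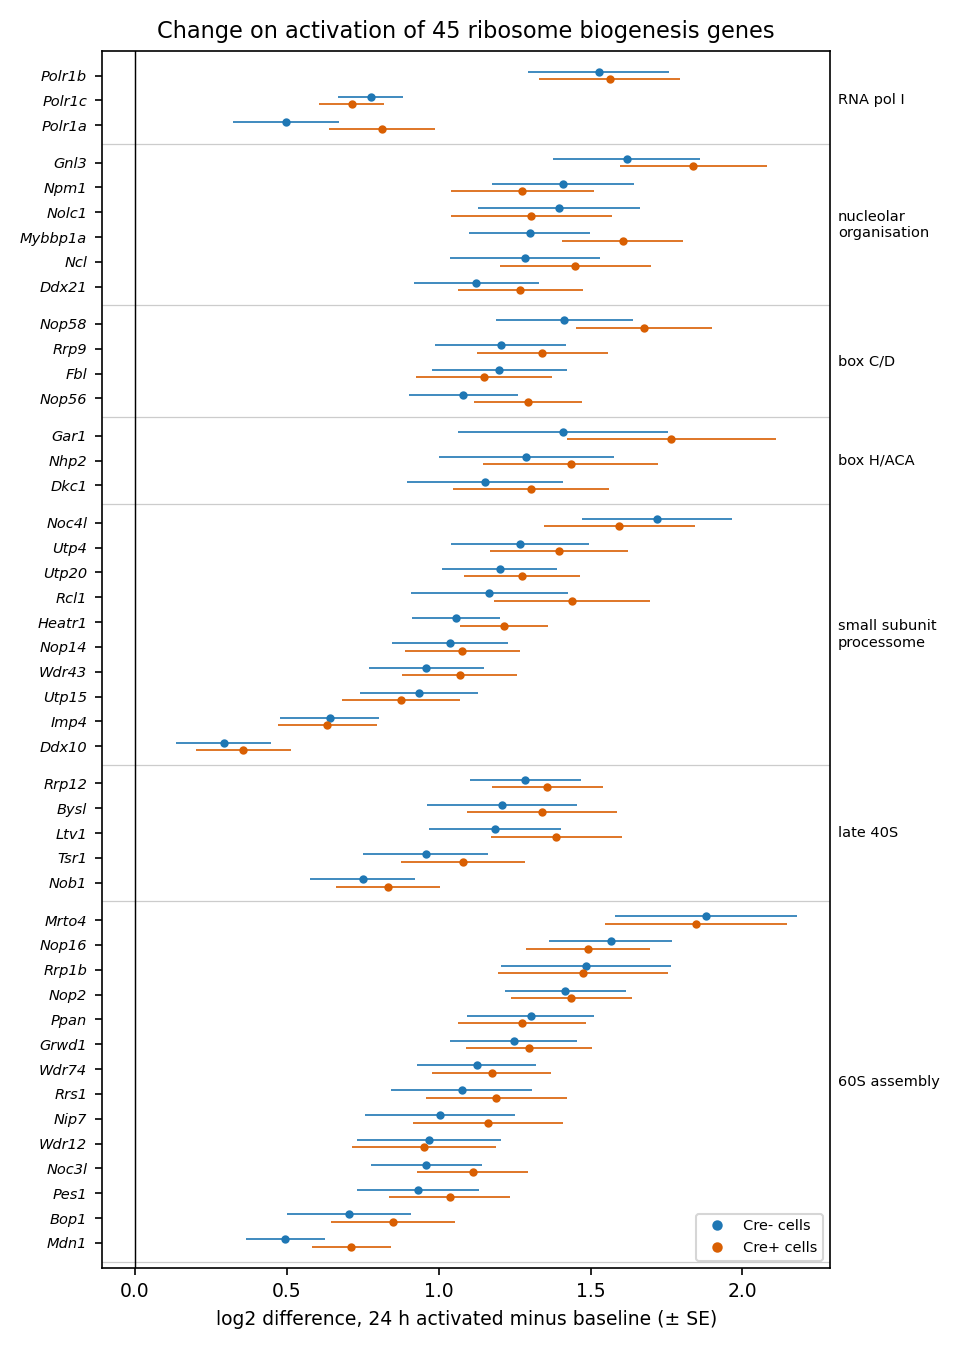
Each row is 1 gene, grouped by role, and each point is its log2 difference between 24 h activated and baseline arrays (3 against 3) with the SE of the limma fit, in Cre- cells (blue) and Cre+ cells (orange). All points lie right of 0, from 0.29 for Ddx10 to 1.88 for Mrto4 in Cre- cells.

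RNA polymerase I is represented by its largest subunit Polr1a, the second largest subunit Polr1b, and Polr1c, an assembly subunit that it shares with RNA polymerase III. The log2 values of Polr1b were 6.89, 7.05 and 6.79 on the Cre- baseline arrays, 8.17, 8.24 and 8.90 on the Cre- activated arrays, 6.96, 6.66 and 6.72 on the Cre+ baseline arrays and 8.59, 7.82 and 8.62 on the Cre+ activated arrays. The activated values of Polr1b all lay above its baseline values in both genotypes. The log2 difference of Polr1b was 1.53 in Cre- cells (SE 0.23, limma adjusted p = 0.000937) and 1.56 in Cre+ cells (limma adjusted p = 0.000747), increases of 2.88-fold and 2.95-fold. Polr1c read 7.31 to 7.42 on the Cre- and 7.38 to 7.46 on the Cre+ baseline arrays, and 8.01 to 8.29 and 7.97 to 8.21 on the activated ones. It rose 1.71-fold in Cre- cells (log2 difference 0.78, SE 0.11, limma adjusted p = 0.000464) and 1.64-fold in Cre+ cells (0.71, limma adjusted p = 0.00074). Polr1a, which forms much of the catalytic cleft, had a smaller difference than Polr1b. In Cre- cells Polr1a read 8.17, 8.20 and 8.03 at baseline and 8.39, 8.49 and 9.01 after activation, and in Cre+ cells 7.88, 7.80 and 7.58 and 8.59, 8.29 and 8.81. It was called in Cre+ cells (log2 difference 0.81, SE 0.17, limma adjusted p = 0.00667) and not in Cre- cells (0.50, limma adjusted p = 0.0712). The difference between these responses was 0.32 (95% interval -0.23 to 0.86), and it was not called. Polr1a was called in Cre- cells in 4 alternative settings, which were array weights, a mean of at least 5, median centring, and the Cre- activated array 1 left out, where the difference was 0.62.

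All 6 genes of nucleolar organisation rose in both genotypes, with medians of 1.35 and 1.38. Gnl3 encodes nucleostemin, a nucleolar GTPase of proliferating cells. The arrays gave Gnl3 log2 levels of 7.18, 7.46 and 7.35 in resting and 8.60, 8.77 and 9.47 in activated Cre- cells, against 7.18, 7.08 and 7.17 and 9.08, 8.47 and 9.39 in Cre+ cells. It rose 3.07-fold in Cre- cells (log2 difference 1.62, SE 0.24, limma adjusted p = 0.000853) and 3.58-fold in Cre+ cells (1.84, limma adjusted p = 0.000338). The activated arrays numbered 3 were the highest for Gnl3 in both genotypes, and the activated values all lay above the baseline values. Ncl encodes nucleolin, an abundant RNA-binding protein of the nucleolus. The log2 values of Ncl were 8.85, 8.96 and 8.86 on the Cre- baseline arrays, 9.93, 9.78 and 10.80 on the Cre- activated arrays, 8.82, 8.69 and 8.90 on the Cre+ baseline arrays and 10.36, 9.82 and 10.58 on the Cre+ activated arrays. The log2 difference of Ncl was 1.28 in Cre- cells (SE 0.25, limma adjusted p = 0.00398) and 1.45 in Cre+ cells (limma adjusted p = 0.00174), increases of 2.43-fold and 2.73-fold. Npm1, the histone and ribosome chaperone nucleophosmin, rose by 1.41 in Cre- and 1.28 in Cre+ cells. Its activated values were 7.44, 7.91 and 8.13 in Cre- and 7.59, 6.94 and 7.95 in Cre+ cells, so those of the genotypes overlapped. Nolc1, a chaperone that carries snoRNPs through the nucleolus, rose by 1.40 in Cre- and 1.31 in Cre+ cells. Ddx21, an RNA helicase that acts on ribosomal RNA transcription and processing, rose by 1.12 in Cre- and 1.27 in Cre+ cells. Mybbp1a, a nucleolar protein that binds RNA polymerase I, rose by 1.30 in Cre- and 1.61 in Cre+ cells.

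The snoRNP proteins rose as well. Box C/D particles place methyl groups on ribosomal RNA, and Fbl encodes fibrillarin, their methyltransferase. In Cre- cells Fbl read 7.18, 7.58 and 7.35 at baseline and 8.34, 8.36 and 9.02 after activation, and in Cre+ cells 7.41, 7.50 and 7.37 and 8.80, 8.08 and 8.85. It rose 2.30-fold in Cre- cells (log2 difference 1.20, SE 0.22, limma adjusted p = 0.00331) and 2.22-fold in Cre+ cells (1.15, limma adjusted p = 0.00383). The scaffold proteins of the same particle, Nop56 and Nop58, rose by 1.08 in Cre- and 1.29 in Cre+ cells and by 1.41 in Cre- and 1.68 in Cre+ cells. The arrays gave Nop58 log2 levels of 8.16, 8.23 and 8.04 in resting and 9.25, 9.35 and 10.07 in activated Cre- cells, against 8.13, 7.90 and 7.95 and 9.88, 9.21 and 9.92 in Cre+ cells. Among its Cre+ activated values that of array 2 was lowest, and it still stood over 1 above the highest baseline value. Rrp9, which belongs to the particle of the U3 RNA, rose by 1.20 in Cre- and 1.34 in Cre+ cells. Box H/ACA particles convert uridine to pseudouridine through Dkc1, the enzyme dyskerin, which rose by 1.15 in Cre- and 1.30 in Cre+ cells. Its partners Nhp2 and Gar1 rose by 1.29 in Cre- and 1.43 in Cre+ cells and by 1.41 in Cre- and 1.77 in Cre+ cells. The log2 values of Gar1 were 6.06, 6.43 and 6.25 on the Cre- baseline arrays, 7.19, 7.27 and 8.51 on the Cre- activated arrays, 6.02, 5.95 and 6.14 on the Cre+ baseline arrays and 8.04, 7.10 and 8.27 on the Cre+ activated arrays. Gar1 had the widest spread of these genes among activated arrays, and without the Cre- baseline array 1 its Cre- difference was not called (limma adjusted p = 0.058).

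Of the 10 genes of the small subunit processome, 9 rose in each genotype, with medians of 1.05 and 1.15. Noc4l, which works with Nop14 in early 40S assembly, changed most among them in Cre- cells. Its mean level was 6.63 ± 0.11 (SD, n = 3) at baseline and 8.34 ± 0.51 after activation in Cre- cells, against 6.72 ± 0.10 and 8.31 ± 0.45 in Cre+ cells. The log2 difference of Noc4l was 1.72 in Cre- cells (SE 0.25, limma adjusted p = 0.00068) and 1.59 in Cre+ cells (limma adjusted p = 0.000988), increases of 3.29-fold and 3.02-fold. Its partner Nop14 rose by 1.04 in Cre- and 1.08 in Cre+ cells. The UTP-A subcomplex binds the precursor first and is linked to its transcription. Its members Utp4, Utp15, Wdr43 and Heatr1 differed by 1.27, 0.93, 0.96 and 1.06 in Cre- cells and by 1.40, 0.88, 1.07 and 1.21 in Cre+ cells. All of these were called. The log2 values of Heatr1 were 8.16, 8.20 and 8.18 on the Cre- baseline arrays, 9.03, 9.17 and 9.51 on the Cre- activated arrays, 8.04, 7.93 and 7.96 on the Cre+ baseline arrays and 9.28, 8.91 and 9.39 on the Cre+ activated arrays. Heatr1 was the tightest of the set at baseline in Cre- cells (SD 0.02, n = 3) and its adjusted p in Cre- cells was the smallest of the processome, with values of 0.000466 and 0.000165 (limma). Utp20, a very large scaffold protein, rose by 1.20 in Cre- and 1.28 in Cre+ cells. Rcl1, which takes part in cleavage of the precursor, rose by 1.17 in Cre- and 1.44 in Cre+ cells. Imp4, a component of the U3 particle, rose by 0.64 in Cre- and 0.63 in Cre+ cells, and that call was lost in 3 alternative settings in Cre- and 5 in Cre+ cells. Among these were the settings without Cre- baseline array 3, Cre+ baseline arrays 2 or 3, and Cre+ activated arrays 1 or 3.

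Ddx10, a helicase of the same pathway, was the gene not called in either genotype. In Cre- cells Ddx10 read 7.69, 7.91 and 7.85 at baseline and 7.97, 7.98 and 8.37 after activation, and in Cre+ cells 7.82, 7.71 and 7.76 and 8.18, 7.80 and 8.38. The log2 difference was 0.29 in Cre- cells (95% interval -0.05 to 0.63, limma adjusted p = 0.248) and 0.36 in Cre+ cells (95% interval 0.02 to 0.70, limma adjusted p = 0.14). Its value on Cre+ activated array 2 lay within the range of the Cre+ baseline arrays, and leaving that array out raised the Cre+ difference to 0.52 and gave it a call, as did array weights (0.41).

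The 5 genes of late 40S maturation rose in both genotypes. Bysl encodes bystin, a factor of nuclear 40S precursors, and rose by 1.21 in Cre- and 1.34 in Cre+ cells. Rrp12, which helps to export the precursors, rose by 1.29 in Cre- and 1.36 in Cre+ cells. Ltv1 and Tsr1 act on cytoplasmic 40S precursors and rose by 1.19 in Cre- and 1.39 in Cre+ cells and by 0.96 in Cre- and 1.08 in Cre+ cells. Nob1, the endonuclease that makes the final cut of the small subunit RNA, rose least in this group. The arrays gave Nob1 log2 levels of 7.49, 7.59 and 7.22 in resting and 7.92, 8.13 and 8.50 in activated Cre- cells, against 7.34, 7.46 and 7.19 and 8.23, 7.89 and 8.37 in Cre+ cells. It rose 1.68-fold in Cre- cells (log2 difference 0.75, SE 0.17, limma adjusted p = 0.0102) and 1.78-fold in Cre+ cells (0.83, limma adjusted p = 0.00524). No activated Nob1 value lay below any baseline value.

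All 14 genes of 60S assembly rose in both genotypes, with medians of 1.10 and 1.18. Mrto4, a nuclear relative of a ribosomal stalk protein, had the largest difference of the 45 genes in both genotypes. In Cre- cells Mrto4 read 6.37, 6.28 and 6.11 at baseline and 7.80, 7.69 and 8.92 after activation, and in Cre+ cells 6.35, 6.11 and 6.14 and 8.17, 7.53 and 8.44. It rose 3.68-fold in Cre- cells (log2 difference 1.88, SE 0.30, limma adjusted p = 0.00125) and 3.60-fold in Cre+ cells (1.85, limma adjusted p = 0.00129). Its value on Cre- activated array 3 exceeded those of the other Cre- activated arrays by over 1 log2 unit, and without that array its Cre- difference was 1.49. Nop16, a nucleolar 60S factor, and Nop2, a methyltransferase of the large subunit RNA, rose by 1.57 in Cre- and 1.49 in Cre+ cells and by 1.42 in Cre- and 1.44 in Cre+ cells. The arrays gave Nop16 log2 levels of 4.79, 4.99 and 4.75 in resting and 6.21, 6.19 and 6.83 in activated Cre- cells, against 4.85, 4.96 and 5.07 and 6.69, 6.01 and 6.64 in Cre+ cells. The log2 difference of Nop16 was 1.57 in Cre- cells (SE 0.20, limma adjusted p = 0.000326) and 1.49 in Cre+ cells (limma adjusted p = 0.000417), increases of 2.96-fold and 2.81-fold. The activated values of Nop16 all lay above its baseline values in both genotypes. The PeBoW complex, made of Pes1, Bop1 and Wdr12, is required to process the large subunit RNA. Pes1 rose by 0.93 in Cre- and 1.04 in Cre+ cells, Bop1 by 0.70 in Cre- and 0.85 in Cre+ cells and Wdr12 by 0.97 in Cre- and 0.95 in Cre+ cells. Bop1 was near the threshold in Cre- cells (SE 0.20, limma adjusted p = 0.033) and lost its call in 7 alternative settings there, among them each Cre- baseline array and Cre- activated array 3 left out. In Cre+ cells it lost its call in 3, among them Cre+ activated arrays 1 or 3 left out (limma adjusted p up to 0.0545). Wdr12 lost its call in 2 settings in Cre- and 4 in Cre+ cells, among them Cre- baseline array 1, Cre+ baseline array 3 and Cre+ activated arrays 1 or 3 left out. Rrp1b, a nucleolar partner of protein phosphatase 1, rose by 1.49 in Cre- and 1.48 in Cre+ cells. Ppan rose by 1.30 in Cre- and 1.27 in Cre+ cells, Grwd1, a chaperone for a ribosomal protein, by 1.25 in Cre- and 1.30 in Cre+ cells, and Wdr74 by 1.13 in Cre- and 1.17 in Cre+ cells. Rrs1, which brings the small ribosomal RNA particle into the 60S precursor, rose by 1.08 in Cre- and 1.19 in Cre+ cells. Nip7 and Noc3l rose by 1.00 in Cre- and 1.16 in Cre+ cells and by 0.96 in Cre- and 1.11 in Cre+ cells. Without Cre- baseline array 1 or 3 Nip7 was not called in Cre- cells (limma adjusted p up to 0.0549).

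Mdn1, the giant AAA ATPase that strips assembly factors from 60S precursors, followed another order of arrays. The arrays gave Mdn1 log2 levels of 8.15, 7.97 and 8.36 in resting and 8.71, 8.66 and 8.59 in activated Cre- cells, against 8.19, 7.81 and 8.07 and 8.80, 8.59 and 8.81 in Cre+ cells. It rose 1.41-fold in Cre- cells (log2 difference 0.49, SE 0.13, limma adjusted p = 0.0206) and 1.64-fold in Cre+ cells (0.71, limma adjusted p = 0.00268). Its Cre- activated array 3 was the lowest of the 3, whereas 40 of the 45 genes had their highest activated value on that array. Mdn1 lost its call in Cre- cells in 5 alternative settings, among them baseline arrays 1 or 2 and activated arrays 1 or 2 left out, and in Cre+ cells under the 2-fold minimum alone.

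Promoter sequences were read for the 40 genes found in a RefSeq table of the build GRCm38.p6, which spans 250 bases before to 50 after each gene start. They are shown because the genes moved together, and because CACGTG, the E-box bound by MYC with its partner MAX and by other factors, lay just after the start in some of them. Of the 40 genes, 9 (22.5%) held CACGTG within the 50 bases after the start. The share was 1.37% among 15792 protein-coding genes tested on the array and 1.28% among all 27025 genes of the table. In the 250 bases before the start, 2 of the 40 genes (5%) held it, against 8.01% of the protein-coding genes tested. CACGTG reads the same on both strands, and only exact matches were counted. The 11 matches are shown here as runs of 30 bases on the strand of the gene, 5′ to 3′, with CACGTG in capitals, ordered by position, and this position was noted after the sequences were seen.

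Imp4, chr1:34439696-34439725, + strand: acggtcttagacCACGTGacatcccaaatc
Nop2, chr6:125131811-125131840, + strand: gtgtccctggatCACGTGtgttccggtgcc
Pes1, chr11:3963965-3963994, + strand: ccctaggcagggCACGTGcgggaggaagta
Utp4, chr8:106893643-106893672, + strand: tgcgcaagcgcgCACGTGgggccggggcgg
Wdr43, chr17:71616220-71616249, + strand: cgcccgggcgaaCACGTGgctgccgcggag
Tsr1, chr11:74898092-74898121, + strand: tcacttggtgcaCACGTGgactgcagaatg
Ltv1, chr10:13193092-13193121, - strand: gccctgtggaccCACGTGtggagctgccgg
Grwd1, chr7:45830740-45830769, - strand: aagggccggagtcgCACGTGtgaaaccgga
Utp20, chr10:88826765-88826794, - strand: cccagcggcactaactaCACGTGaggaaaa
Mdn1, chr4:32657139-32657168, + strand: caacgtgaattccttcacCACGTGtgtgtc
Mybbp1a, chr11:72441347-72441376, + strand: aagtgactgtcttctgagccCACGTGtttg

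Counted from the first base of the gene as 1, the match began at base 3 in Pes1, 16 in Utp4, 18 in Wdr43, 25 in Tsr1, 29 in Ltv1, 35 in Grwd1, 38 in Utp20, 39 in Mdn1 and 41 in Mybbp1a. In Nop2 and Imp4 it began 60 and 121 bases before the start. The whole stretch before the start of Nop2, which rose over 2-fold in both genotypes, is chr6:125131633-125131882 on the + strand.

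Nop2: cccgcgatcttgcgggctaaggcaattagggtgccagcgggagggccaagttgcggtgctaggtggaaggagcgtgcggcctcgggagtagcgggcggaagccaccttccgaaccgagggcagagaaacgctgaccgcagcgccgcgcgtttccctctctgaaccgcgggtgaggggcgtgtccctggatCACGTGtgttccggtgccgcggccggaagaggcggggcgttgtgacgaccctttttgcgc

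The 11 genes with a match had a median activation difference of 1.19 in Cre- and 1.28 in Cre+ cells, and the 29 without one 1.17 and 1.30, so the sizes of the responses lay together. Among 102 further genes of the pathway in the table, 6 (5.88%) held CACGTG after the start, and among 41 cytosolic ribosomal protein genes none did. Before the start 12 (11.8%) and 4 (9.76%) of these lists held it. In the whole window 17 (16.7%) and 5 (12.2%) did, against 27.5% of the 40 genes. The share after the start was thus lower in the other pathway genes than the 22.5% of the 40 genes. It was above the 1.37% of the protein-coding genes tested. A match describes the sequence in this window only, and binding was not measured.

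A smaller share of the other genes of the pathway was called. The set and the lists were chosen with earlier results of these data known, so this contrast is a description. Of 123 measured genes from a list of other biogenesis factors, 86 rose and none fell in Cre- cells, with a median of 0.72, and 89 rose and 1 fell in Cre+ cells, with a median of 0.74. Over all genes tested 9.39% rose and 9.10% fell in Cre- cells, and 10.1% rose and 10.6% fell in Cre+ cells. Among other small subunit factors 36 of 45 rose in Cre- cells, led in adjusted p by Tbl3 (1.52 in Cre- and 1.34 in Cre+ cells), Naf1, an assembly factor of H/ACA particles (1.50 and 1.12), and Noc2l (1.07 and 1.22), which the list holds although its product is known as a partner of Noc3l in 60S assembly. Of 51 other large subunit factors 34 rose in Cre- and 38 in Cre+ cells, led by Eif6, which keeps the subunits apart (1.08 and 1.14), Nle1 (0.65 and 0.73) and Gnl2 (0.93 and 0.99). The nuclear exosome, which trims the precursors, had 10 of 14 genes higher in each genotype, led by the nuclease Dis3 (1.21 and 1.28), Exosc6 (1.11 and 1.07) and Exosc2 (1.14 and 0.95).

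Of 13 other subunits and initiation factors of RNA polymerase I that were measured, of 17 listed, 6 rose in each genotype. The median was 0.33 in Cre- and 0.32 in Cre+ cells. The leading genes were Polr2e (0.73 and 0.56), Taf1d (0.85 and 1.00) and Polr2f (1.22 and 0.98). The other genes that rose, named after their values were seen, were Polr1d (0.48 and 0.50), Polr1e (0.76 and 0.98) and the initiation factor gene Rrn3 (0.67 and 0.68). Ubtf, which encodes the factor UBF that opens the ribosomal genes and was also chosen after its values were seen, differed by 0.05 and 0.20 and was not called. Polr2k was the gene that fell in Cre+ cells (-0.76, SE 0.23, limma adjusted p = 0.036). Cytosolic ribosomal protein genes stood lower in the order of medians, at 0.33 in each genotype with 14 of 53 genes higher and none lower. Only these 53 of 80 listed genes were measured, and their mean level was 5.53 to 5.63 on the baseline arrays. How well their rows follow these transcripts was not tested, so the smaller median may not describe the ribosomal protein genes as a whole. Of 10 measured genes for RNA polymerase III subunits, 2 rose in Cre- cells, and 3 rose and 1 fell in Cre+ cells. These lists are set side by side as descriptions, and the differences between them were not tested.

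**Figure D2:**
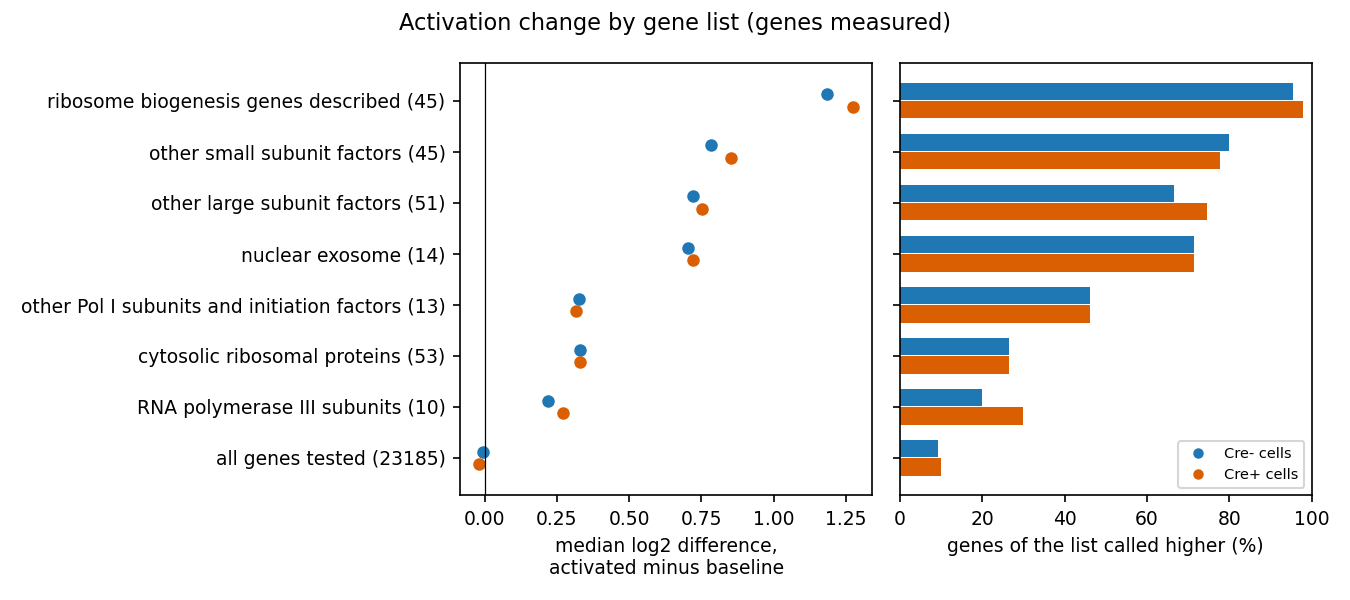
Left, the median log2 difference on activation of each gene list in Cre- (blue) and Cre+ cells (orange), with the number of genes measured in brackets. Right, the percentage of the list called higher at a limma adjusted p under 0.05. The 45 genes described here have medians of 1.19 and 1.28, the cytosolic ribosomal proteins 0.33 and 0.33, and all genes tested 0.00 and -0.02.

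The activated arrays differed among themselves, and the 45 genes moved together between them. The mean of the 45 genes was 7.30, 7.37 and 7.21 on the Cre- and 7.23, 7.21 and 7.18 on the Cre+ baseline arrays. After activation it was 8.16, 8.25 and 8.89 on the Cre- and 8.60, 8.02 and 8.72 on the Cre+ arrays. Every activated array lay above every baseline array, and the arrays numbered 3 were highest in both genotypes. Of the 45 genes, 40 had their highest activated value on Cre- array 3, 4 on Cre+ array 3 and 1 on Cre+ array 1, and 40 had their lowest on Cre+ array 2. The median SD of a gene within a group was 0.38 and 0.39 for the 45 genes in activated Cre- and Cre+ cells, and 0.18 and 0.17 over all genes. At baseline it was 0.12 and 0.09, against 0.13 and 0.13 over all genes. The spread between activated arrays was therefore wider for these genes than for the median gene, whereas at baseline it was not.

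**Figure D3:**
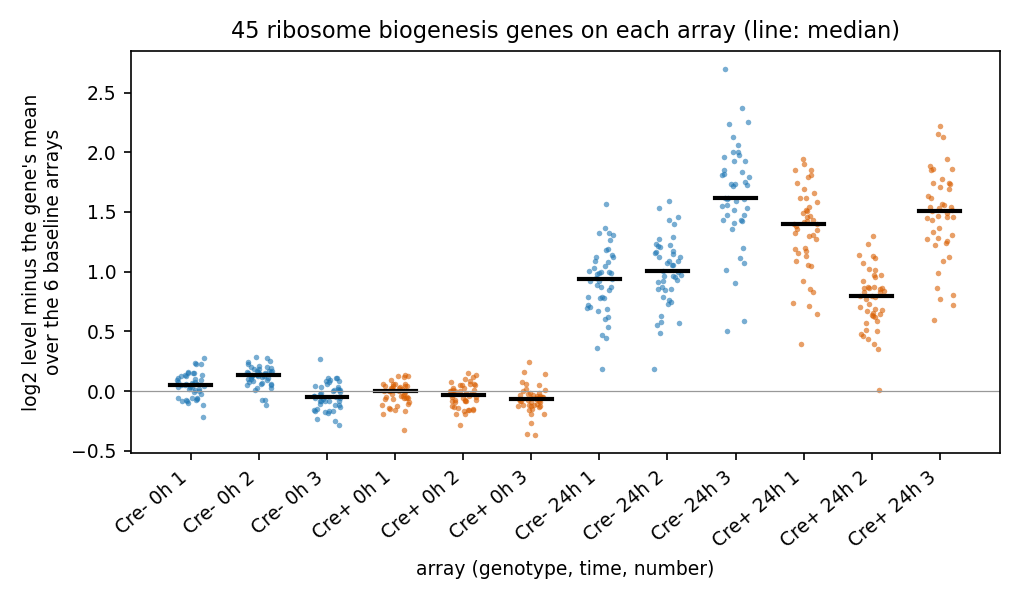
Each point is 1 of the 45 genes on 1 of the 12 arrays, as its log2 level minus its own mean over the 6 baseline arrays, and each line is the median of the array. The baseline arrays lie near 0, Cre- activated array 3 is highest and Cre+ activated array 2 is the lowest of the activated arrays.

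Genes of the cell cycle also differed between activated arrays. The mean of 28 cell cycle genes was 6.51, 6.52 and 8.85 on the Cre- and 7.13, 6.44 and 8.46 on the Cre+ activated arrays, against 6.23 to 6.43 at baseline, and 4 of the 28 were called higher in each genotype. On Cre- activated arrays 1 and 2 and Cre+ activated array 2 the cell cycle mean was thus near its baseline range. Single cell cycle genes differed from the baseline mean of their genotype by -1.03 to 1.10, -1.07 to 1.18 and -0.93 to 1.20 there. On them 15, 15 and 14 of the 28 lay above all baseline arrays of their genotype, where 8308, 7081 and 7641 of all 23185 genes did. On these arrays the 45 genes stood a median of 0.91, 0.99 and 0.81 above the baseline mean of their genotype, while the median rise of the cell cycle genes was 0.19, 0.15 and 0.19. On the arrays numbered 3 the median rise was 1.64 in Cre- and 1.57 in Cre+ cells for the 45 genes, and 2.58 and 2.11 for the cell cycle genes. With both activated arrays numbered 3 left out, 42 of the 45 genes rose in Cre- cells with a median of 0.94, and 44 in Cre+ cells with a median of 1.12. Cre+ activated array 1, which stayed in, had a median cell cycle rise of 0.77. The part of the cell cycle genes in the result was not tested. Across the 6 activated arrays, which hold both genotypes, the mean of the 45 genes had a Pearson r of 0.933 with the cell cycle mean, of 0.952 with Myc and of 0.796 with the mean of the B cell markers. Single genes had a median r of 0.92 with the cell cycle mean, from 0.11 for Mdn1 to 0.98.

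Myc itself read 8.20, 8.48 and 8.50 at baseline and 10.13, 10.17 and 10.66 after activation in Cre- cells, and 8.22, 8.25 and 8.37 and 10.52, 9.69 and 10.57 in Cre+ cells. The rise was 1.93 in Cre- (SE 0.22, limma adjusted p = 0.000131) and 1.98 in Cre+ cells (limma adjusted p = 9.7e-05). Like the 45 genes, Myc was highest on the arrays numbered 3 and lowest on Cre+ array 2. The B cell markers had a mean of 4.64, 4.98 and 5.62 on the Cre- and 5.61, 5.13 and 6.17 on the Cre+ activated arrays, so they too were highest on the arrays numbered 3 within each genotype, and their part in the order of arrays was not tested.

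**Figure D4:**
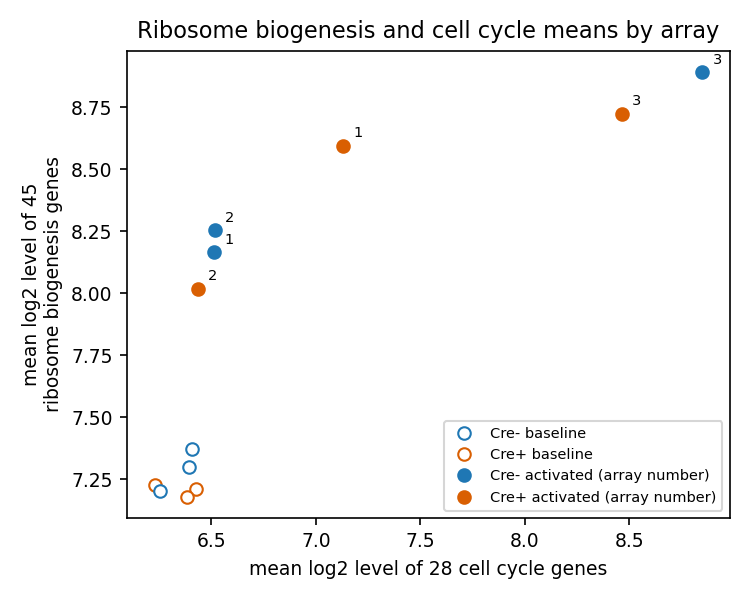
Each point is 1 array, with the mean log2 level of 28 cell cycle genes on the horizontal axis and that of the 45 ribosome biogenesis genes on the vertical axis. Open points are baseline and filled points activated arrays with their number, and 3 activated arrays near a cell cycle mean of 6.5 stand above all baseline arrays on the vertical axis.

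At rest none of the 45 genes was called between the genotypes, where 0.552% of all genes tested were, and 1 had an unadjusted p under 0.05, where 6.93% of all genes did. The median difference, Cre+ minus Cre-, was -0.09, and 34 of the 45 genes read lower in Cre+ cells, against 49.5% of all genes. Of the 45 genes, 26 had their highest baseline value on Cre- array 2. Without that array the median was -0.05, with 30 genes lower in Cre+ cells. Leaving out Cre+ baseline array 3 gave a median of -0.05 as well, with 33 genes lower. Leaving out Cre- baseline array 3 gave -0.14, with 39 genes lower. The values of 8 genes (17.8%) did not overlap between the genotypes, all lower in Cre+ cells, where 7.42% of all genes were lower without overlap. These were Polr1a, Mybbp1a, Nop56, Wdr43, Heatr1, Nop14, Rcl1 and Ltv1. Polr1a had the widest difference, with 7.88, 7.80 and 7.58 in Cre+ against 8.17, 8.20 and 8.03 in Cre- cells. Its Cre+ mean was shifted by -0.38 (SE 0.17, limma adjusted p = 0.721), and it was the gene with the unadjusted p under 0.05. Heatr1 differed by -0.20 (95% interval -0.52 to 0.12) and Rcl1 by -0.27 (-0.83 to 0.30). Mybbp1a differed by -0.18, Ltv1 by -0.15, Nop14 by -0.12, Nop56 by -0.12 and Wdr43 by -0.07. The highest difference was that of Nop16, at 0.11 (95% interval -0.33 to 0.56). The 95% intervals of all 45 differences lay within 2-fold in either direction, and the widest reached from -0.96. The fit pools the spread of a gene with that of the more variable activated arrays. For most genes it therefore overstates the spread at baseline. With only the baseline arrays in the fit, none of the 45 was called either. B cell markers read lower in Cre+ cells at baseline in 11 of 13 cases, with a median of -0.18 and no call, and their part was not tested.

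After activation none of the 45 was called between the genotypes either, where 0.729% of all genes were, none had an unadjusted p under 0.05, where 7.51% of all genes did, and the values of all 45 overlapped between the genotypes, where 5.25% of all genes were higher and 5.51% lower in Cre+ cells without overlap. The median difference was 0.01, with 26 genes higher and 19 lower in Cre+ cells (46.3% and 53.7% of all genes), and all 95% intervals of the fit lay within 2-fold. The fit pools the spread of a gene over all 4 groups. The median SD of the 45 genes was 0.38 and 0.39 on activated Cre- and Cre+ arrays, but 0.12 and 0.09 at baseline. For most genes these intervals and p-values therefore understate the spread of the activated arrays. With only the arrays compared, none of the 45 was called either. Npm1 differed most, with 7.59, 6.94 and 7.95 in Cre+ against 7.44, 7.91 and 8.13 in Cre- cells, which gives -0.33 (SE 0.23, limma adjusted p = 0.906). Nhp2 and Nip7, an assembly factor of the large subunit, stood highest at 0.17 and 0.16, and their sign turned without Cre- array 1 or Cre+ array 3. B cell markers were higher in Cre+ cells in 12 of 13 cases, with a median of 0.61 and no call, and their part was not tested. Single arrays set the direction of the median. Among the activated arrays, leaving out Cre- array 3 moved it to 0.25 and leaving out Cre+ array 2 to 0.23. Leaving out Cre- array 1 or 2 moved it to -0.13 or -0.08, and leaving out Cre+ array 1 or 3 to -0.07 or -0.12. With array weights 6 genes were called higher in Cre+ cells (Ncl, Nop58, Rrp9, Nhp2, Gar1 and Nip7), where 5.19% of all genes were, at limma adjusted p from 0.0392 to 0.0477. That fit gave weights of 3.79 to Cre+ activated array 1 and 3.08 to Cre- activated array 2 but 0.235 to Cre- activated array 3, so it set 1 array of each genotype largely against the other.

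The activation responses were not shown to differ between the genotypes. None of the 45 genes was called for the difference of the responses, Cre+ minus Cre-, where 0.00863% of all genes were (2 genes), and none had an unadjusted p under 0.05, where 4.70% of all genes did. The median was 0.11, with 33 genes above 0, against 46.7% of all genes. Gar1 had the largest difference at 0.36 (95% interval -0.71 to 1.42) and Npm1 the lowest at -0.13 (-0.86 to 0.59), which was above 0 when either Cre- array 3 or Cre+ array 2 of the activated cells was left out. The intervals of 42 genes lay within 2-fold, and their median half-width was 0.65. The median over the set was 0.32 with the third activated Cre- array left out, -0.03 with the third activated Cre+ array left out and 0.40 with array weights.

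**Figure D5:**
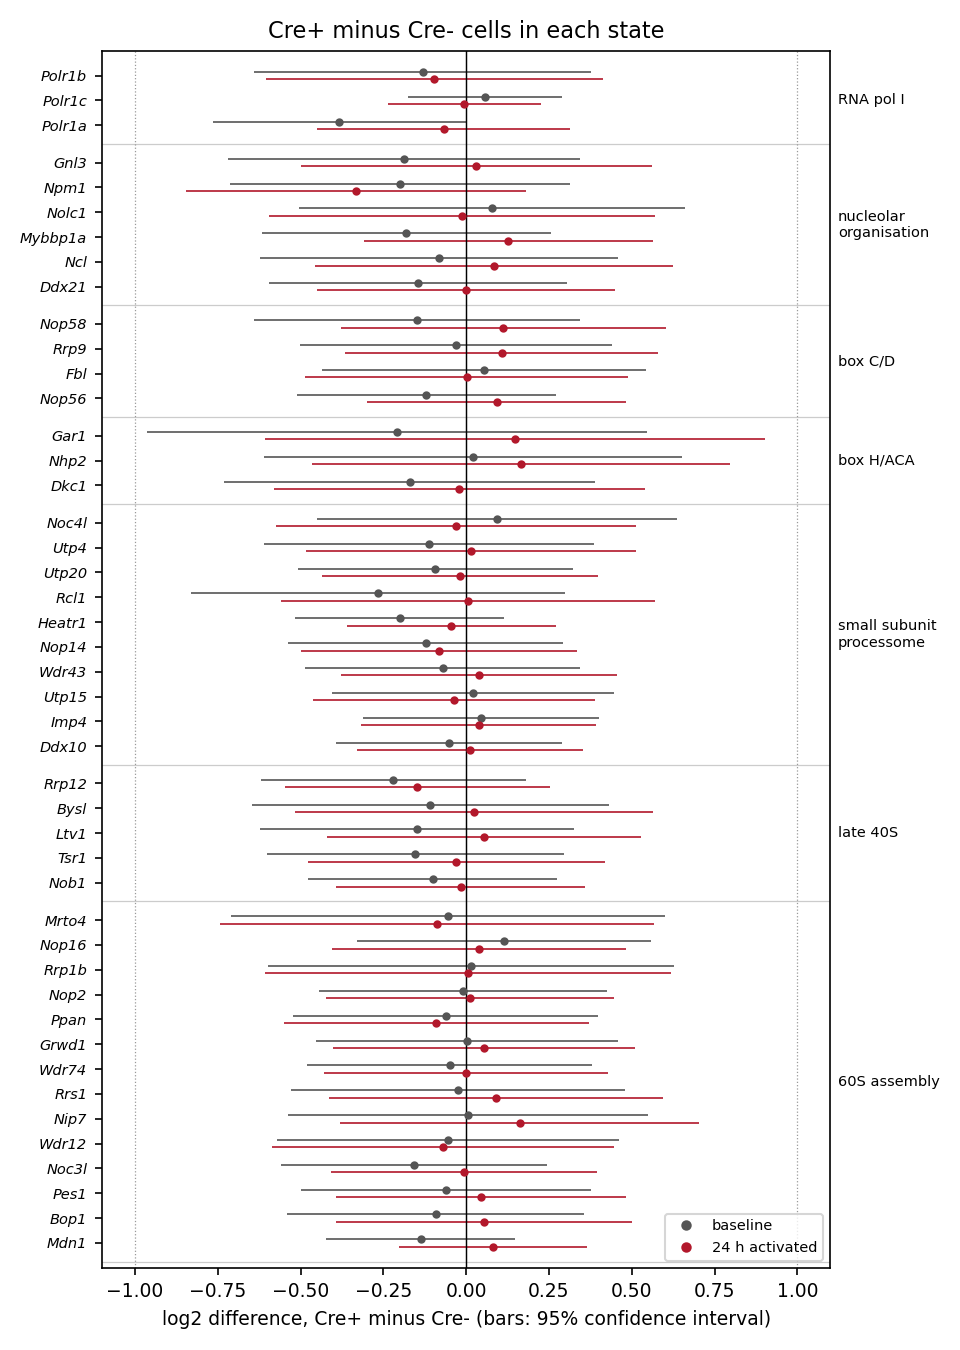
Each row is 1 gene, and each point is its log2 difference between Cre+ and Cre- cells with the 95% confidence interval of the limma fit, at baseline (grey) and after 24 h of activation (red). Dotted lines mark 2-fold in either direction, and all intervals lie between them. The fit pools the spread of a gene over all 4 groups, although most of these genes varied more between activated than between baseline arrays.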

How the data were processed

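Biotin-labelled RNA of CD4+ T cells was measured on whole-transcript arrays. The values are log2 expression, deposited by the authors and made with RMA, affy 1.36.1 and R 2.15.1, per the submitters' processing notes. The chip definition file is not given in the sources used here. RMA sets the arrays to a common distribution, so a change of total RNA per cell is not seen. Of 25206 rows, the 23185 with 1 gene were tested, and 2021 were left out. All 12 arrays entered a single linear model of the 4 group means in limma 3.58.1 under R 4.3.3 (8 residual degrees of freedom, 3.55 prior), which was tested on simulated data. It gave 5 comparisons. No filter on low values was used, so all 45 genes entered every test. The genes, lists and alternatives were chosen with earlier results of these data known. All 45 genes could be named, and of other pathway lists the 3 genes with the smallest adjusted p in Cre- cells that were also called in Cre+ cells. Of 131 other pathway genes listed, 123 were measured. Promoters came from RefSeq tables, and 5 genes were not found there (Npm1, Fbl, Rrp12, Bop1 and Rrs1). A planned description of protein composition was not made. The median of an array was 4.04 to 4.17, and precision is limited by the number of arrays. Alternatives tried were array weights, a variance trend, a block for the replicate number, a mean of at least 5, all rows, 3 other normalizations, a 2-fold minimum, only the arrays compared, both activated arrays numbered 3 left out, and each array left out.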

Additional observations from a re-analysis of the deposited data

How the results depend on the processing

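The rise on activation kept its direction for all 45 genes in both genotypes under all 23 alternatives. In Cre- cells 30 of the 43 calls held under all of them and 37 under the 22 without a 2-fold minimum, and in Cre+ cells 36 and 41 of the 44. Between genotypes, the deviations of arrays numbered 1, 2 and 3 correlated at -0.05, 0.57 and 0.73 after activation and at -0.03, 0.14 and 0.15 at baseline, so not every pair deviated together, and of the activated pairs that numbered 3 correlated best with its own number. Whether the numbers mark shared preparation is not given by the labels. With the replicate block 43 and 44 of the 45 genes were called and none in the genotype comparisons, and over all genes the difference of responses had 5 calls in place of 2. Leaving out 1 array at a time gave 38 to 43 called genes of the set in Cre- cells (medians 0.94 to 1.32, fewest without Cre- 0 h array 1) and 41 to 45 in Cre+ cells (1.12 to 1.50). The genotype medians then ranged from -0.14 to -0.05 at baseline, from -0.13 to 0.25 after activation and from -0.03 to 0.32 for the difference of responses, with 0 genes called each time. Array weights called 6 genes of the set after activation and moved the median of the difference of responses to 0.40.

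Over all genes tested, a 2-fold minimum left 1548, 1683, 61 and 95 calls for activation in Cre- and Cre+ cells and for genotype at baseline and after activation, against 4287, 4795, 128 and 169. Array weights gave 8292 calls for activation in Cre+ cells, 321 and 2416 for genotype and 143 for the difference of responses. Only the arrays compared gave 251 and 9 for genotype, a mean of at least 5 gave 83 at baseline and 0 for the difference, and leaving out both activated arrays numbered 3 gave 266 at baseline and 11 for the difference. Without 1 array the counts ran from 2877 to 4718, 3148 to 5922, 50 to 199, 72 to 283 and 2 to 25. The cause of these changes was not tested. With 1 array left out, the genotype difference after activation ran from -0.0489 to 0.518 for Nhp2 and from -0.0106 to 0.435 for Nip7, with both signs below 0 without Cre- 24 h array 1 (-0.0489 and -0.0038) or Cre+ 24 h array 3 (-0.0412 and -0.0106). The Npm1 difference of responses ran from -0.362 to 0.142 and was above 0 without Cre- 24 h array 3 (0.0171) or Cre+ 24 h array 2 (0.142).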

Other observations

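The core of binding sites of ETS factors, CCGGAAG on either strand, lay in the 250 bases before the start of 12 of the 40 genes with a promoter sequence (30%), against 10.6% of the protein-coding genes tested. Among 102 other genes of the pathway 36 (35.3%) held it, and among 41 cytosolic ribosomal protein genes 12 (29.3%). The genes of the set with a match before the start were Ddx10, Gar1, Grwd1, Heatr1, Ltv1, Nhp2, Nip7, Nolc1, Nop2, Polr1c, Utp4 and Wdr74. Ddx10, the gene not called on activation, was among them, as were Nop2 and Gar1, which rose over 2-fold.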
